A study of Mus musculus with 6 samples.

Results

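The genes described here are 10 lysosomal proteases and protease inhibitors, the cathepsins *Ctss*, *Ctsb*, *Ctsc*, *Ctsd*, *Ctsh*, *Ctsk*, *Ctsl* and *Ctsz* and the cystatins *Cst3* and *Cst6*, among the 26579 genes of the count table. They were chosen by name with the measured genotype difference of these same libraries already known, in which *Ctss* shared the lowest adjusted p-value of any gene. Their differences between genotypes are therefore given as a description. All 10 were found in the table and were among the 15102 genes that passed the count filter.

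Skin of the dorsal neck was compared between 3 YAP2-5SA-∆C mice (TG) and 3 wild type littermates (WT), all female and 33 days old. The transgene encodes a mildly active form of the transcriptional cofactor YAP in basal keratinocytes, and it is carried in every TG mouse and in no WT mouse. Each library came from a punch biopsy of whole skin, so that epidermis, hair follicles, dermis, fat and muscle were sequenced together. In such bulk samples, fewer cells of a type and less RNA per cell cannot be told apart.

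Cathepsins are proteases that are made as inactive precursors, sorted to the lysosome and activated there by the low pH. *Ctss*, *Ctsb*, *Ctsc*, *Ctsh*, *Ctsk*, *Ctsl* and *Ctsz* encode cysteine proteases of the papain family, whereas *Ctsd* encodes an aspartic protease. *Cst3* (cystatin C) and *Cst6* (cystatin M/E) encode secreted proteins that plug the active site of cysteine cathepsins, and in skin the balance of cathepsin L and cystatin M/E takes part in the formation of the cornified layer.

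All 10 genes are protein coding. *Ctsk* (ENSMUSG00000028111, chromosome 3 of GRCm38 from 95499256 to 95509362) and *Ctss* (ENSMUSG00000038642, from 95526786 to 95556403) lie next to each other on the same strand, separated by 17423 bases. *Ctsc* (chromosome 7 from 88278085 to 88310888) and *Ctsd* (from 142375911 to 142388038) share a chromosome, as do *Cst3* (chromosome 2 from 148871722 to 148875692) and *Ctsz* (from 174427493 to 174439039). *Ctsb* lies on chromosome 14 from 63122462 to 63145923, *Ctsh* on chromosome 9 from 90054152 to 90076089, *Ctsl* on chromosome 13 from 64359337 to 64370890 and *Cst6* on chromosome 19 from 5344705 to 5349574. In GENCODE M21, exons of *Ctsb* share 774 bases with *Fdft1* on the opposite strand, those of *Ctsd* share 808 bases with *Gm49369* on the same strand, and those of *Ctsl* share 1742 bases with *Gm47123* on the opposite strand and 395 bases with *Gm49230* on the same strand. Reads from the stretches shared on opposite strands cannot be assigned with certainty, because the strand setting of the counting is not given in the sources used here. For those shared on the same strand, no strand setting would tell the genes apart. Of these other genes, only *Fdft1* had a row in the count table.

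RefSeq start sites were at hand for 7 of the 10 genes, and the 250 bases before each start (GRCm38.p6) were searched on both strands for CACGTG, the core of the E-box bound by the lysosomal regulators TFEB, TFE3 and MITF, and for GGAATG, the core bound by the TEAD partners of YAP. The first was found in the windows of *Ctsd* and *Ctsl*, against 6.02% of the 32851 windows in the table, and the second in that of *Cst3*, against 12.6%. Neither was found in those of *Ctss*, *Ctsk*, *Ctsc* and *Ctsz*. *Ctsb*, *Ctsh* and *Cst6* were not analysed here. The 30 bases around each match are given 5′ to 3′ on the strand of the gene, with the motif in capitals, because they are the letters on which this count rests.
*Ctsd*, from 245 bases before the start, chr7:142388048-142388077, minus strand: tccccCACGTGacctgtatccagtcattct
*Ctsd*, from 98 bases before the start, chr7:142387908-142387937, minus strand: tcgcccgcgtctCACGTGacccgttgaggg
*Ctsl*, from 236 bases before the start, chr13:64370739-64370768, minus strand: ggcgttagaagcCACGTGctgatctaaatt
*Cst3*, from 148 bases before the start, chr2:148875643-148875672, minus strand: gaggctcagcagGGAATGggaatctggcag

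The second *Ctsd* match and those of *Ctsl* and *Cst3* lie within the first exon of other transcripts of these genes in GENCODE M21 (Ctsd-202, Ctsl-203 and Cst3-202). The window of *Ctss*, the gene with the clearest difference below, is given whole, because it held a match to a motif that was added after its sequence was seen, GAAANNGAAA, the core of the element bound by interferon regulatory factors. That motif was found in 2.98% of all windows and in no other of the 7 genes, and overlapped neither of the other motifs. Its match, in capitals, starts 21 bases before the start site.
*Ctss*, chr3:95526536-95526785, plus strand: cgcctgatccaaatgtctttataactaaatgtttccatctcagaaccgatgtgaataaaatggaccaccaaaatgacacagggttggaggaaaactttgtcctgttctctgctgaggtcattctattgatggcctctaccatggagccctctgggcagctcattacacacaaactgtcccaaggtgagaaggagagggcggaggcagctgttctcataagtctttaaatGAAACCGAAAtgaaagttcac

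The libraries held 11225705 to 19505036 counts, and the lowest count of any of the 10 genes in any library was 420, for *Ctss*. The endogenous *Yap1* gene did not separate the genotypes, with 125 to 142 CPM (counts scaled by library size and by TMM, the trimmed mean of log ratios) in WT and 130 to 144 CPM in TG skin, and it is not known whether transgene reads were counted on it. TG replicate 2 stood apart from the other TG libraries in its hair follicle genes: the 10 markers of hair shaft and inner root sheath summed to 1437 CPM there, against 7138 and 9110 CPM in the other TG libraries and 13629 to 17586 CPM in WT skin. Where leaving this library out changed the call of a named gene, the value without it stands beside the result.

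**Figure D1:**
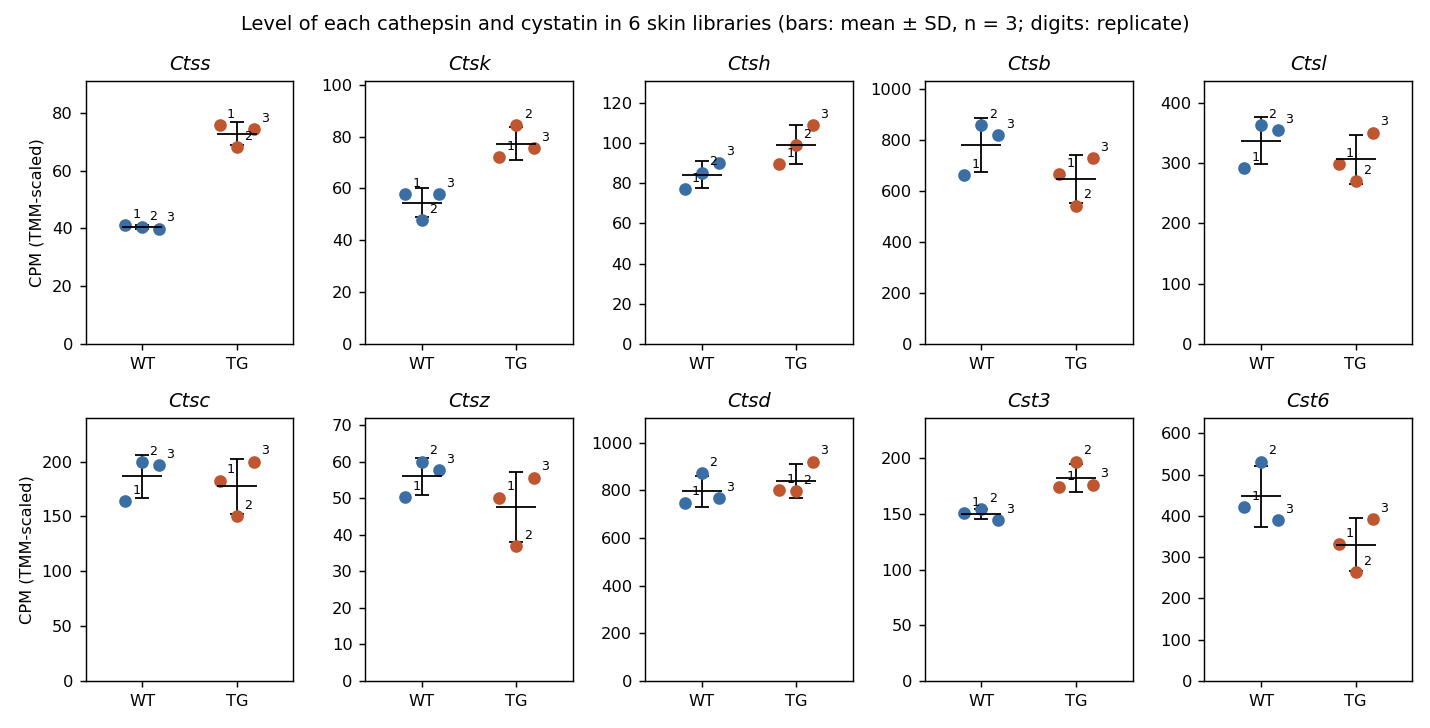
Level of each gene in CPM (vertical axes, from 0) in the 3 WT (blue) and 3 TG (orange) libraries, each point a mouse with its replicate number and each bar the mean ± SD. *Ctss*, *Ctsk* and *Cst3* have all TG points above all WT points, and TG replicate 2 is the lowest point for *Ctsb*, *Ctsl*, *Ctsc*, *Ctsz* and *Cst6*.

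*Ctss* encodes cathepsin S, the protease that trims the invariant chain of MHC class II in antigen-presenting cells. Its level was 41.2, 40.6 and 40.0 CPM in WT replicates 1, 2 and 3 and 75.8, 68.2 and 74.5 CPM in the TG replicates. The lowest TG library thus lay far above the highest WT library, and the WT values were nearly level. Mean levels were 40.6 ± 0.608 CPM in WT and 72.8 ± 4.07 CPM in TG skin (SD, n = 3 each). *Ctss* rose 1.79-fold (log2 fold change 0.84, SE 0.06, FDR 0.0101). The FDR here is the p-value of edgeR's quasi-likelihood test, adjusted by Benjamini-Hochberg over all 15102 genes. Leaving out each library in turn kept the log2 fold change between 0.83 and 0.91, but the FDR rose to 0.1003 without WT replicate 2, to 0.0513 without WT replicate 3 and to 0.0816 without TG replicate 3, in fits that called no gene at all, so that every other call given here is lost in them too.

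*Ctsk* encodes cathepsin K, a collagen-degrading protease known from osteoclasts and also made by activated fibroblasts. It had 57.8, 47.9 and 57.9 CPM in WT and 72.0, 84.5 and 75.5 CPM in TG libraries. The groups did not overlap, and the spread within each was larger than for *Ctss*. The log2 fold change was 0.50 (SE 0.10), and its FDR of 0.0526 was just outside the threshold of 0.05. Its FDR was 0.0407 without TG replicate 2, where the log2 fold change was 0.45 (SE 0.09).

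*Ctsh* encodes cathepsin H, an aminopeptidase. Its values were 76.8, 85.2 and 90.2 CPM in WT and 89.6, 98.7 and 109 CPM in TG libraries. The TG values were mostly higher, but TG replicate 1 lay below WT replicate 3, and the log2 fold change of 0.24 (SE 0.09) had an FDR of 0.163.

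The other cysteine cathepsins had values that overlapped between the genotypes. *Ctsb*, which encodes the abundant endo- and exopeptidase cathepsin B, had 661, 859.5 and 821 CPM in WT and 668, 543 and 728 CPM in TG libraries. *Ctsl*, which encodes the endopeptidase cathepsin L, had 292, 363 and 355 CPM in WT and 299, 271 and 350.4 CPM in TG libraries. For both, WT replicate 1 and TG replicate 1 were nearly level and TG replicate 2 was the lowest of the 6. *Ctsc*, which encodes cathepsin C (dipeptidyl peptidase I), the activator of granule serine proteases, had 164, 199 and 197 CPM in WT and 183, 151 and 200.1 CPM in TG libraries. *Ctsz*, which encodes the carboxypeptidase cathepsin Z (also named X), had 50.3, 60.0 and 57.7 CPM in WT and 50.2, 37.0 and 55.7 CPM in TG libraries. Again TG replicate 2 was the lowest, and the other TG libraries lay within or at the edge of the WT range. The log2 fold changes were -0.27 (SE 0.14) for *Ctsb*, -0.14 (SE 0.12) for *Ctsl*, -0.07 (SE 0.12) for *Ctsc* and -0.23 (SE 0.15) for *Ctsz*, with FDRs of 0.265, 0.511, 0.748 and 0.365. Without TG replicate 2 they were -0.14, -0.04, 0.05 and -0.06, so that the sign of *Ctsc* turned and the other values moved towards 0.

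*Ctsd*, which encodes the aspartic protease cathepsin D, had 748, 871 and 767 CPM in WT and 801, 796 and 920.2 CPM in TG libraries. The ranges overlapped, and no library stood apart. The log2 fold change was 0.08 (SE 0.10) with an FDR of 0.642, and 0.13 without TG replicate 2.

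*Cst3* encodes cystatin C, an inhibitor secreted by nearly every cell type. It had 151, 154 and 145 CPM in WT and 174, 197 and 176 CPM in TG libraries. All TG values were higher than all WT values, and the log2 fold change of 0.28 (SE 0.07) had an FDR of 0.0657. *Cst6*, which encodes the epidermal and follicular inhibitor cystatin M/E, had 420.4, 531.5 and 390.1 CPM in WT and 332, 264.5 and 393 CPM in TG libraries. Here the TG values were mostly lower, with TG replicate 3 just above WT replicate 3. The log2 fold change was -0.44 (SE 0.17) with an FDR of 0.157, and -0.29 (SE 0.15) without TG replicate 2. The 2 cystatins thus had fold changes of opposite sign: *Cst6* made up 73.0% to 77.5% of the reads counted on both in WT skin and 57.3% to 69.0% in TG skin.

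In the quasi-likelihood test, 1 of the 10 genes, *Ctss*, was called higher and 0 were called lower, where 1.44% of all tested genes were called higher and 0.464% lower. With the likelihood-ratio test of edgeR, 2 were called (*Ctss* and *Ctsk*; 10.4% of all genes), with voom 1 (*Ctss*; 1.65%) and with the Wald test of DESeq2 3 (*Ctss*, *Ctsk* and *Cst3*; 10.5%). Without TG replicate 2 the quasi-likelihood test called 2 (*Ctss* and *Ctsk*; 5.46%). The TG values of 3 genes lay wholly above the WT values and those of 0 genes wholly below, where 15.5% and 18.2% of all tested genes did so. Nothing is read from these counts, since the genes were chosen on the same contrast. The median log2 fold change of the 10 genes was 0.00, beside -0.01 over all tested genes, with 5 values above and 5 below 0.

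The summed level of the 8 cathepsins was 2092, 2527 and 2385 CPM in WT and 2238, 2049 and 2514 CPM in TG libraries, so that their total did not separate the genotypes. The make-up of the total differed more. *Ctss* took 1.61% to 1.97% of the reads counted on the 8 genes in WT and 2.96% to 3.39% in TG skin. *Ctsk* took 1.90% to 2.76% in WT and 3.00% to 4.12% in TG skin. *Ctsb* and *Ctsd* together took 67.5% ± 0.960 in WT and 65.5% ± 0.149 in TG skin (SD, n = 3 each).

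**Figure D2:**
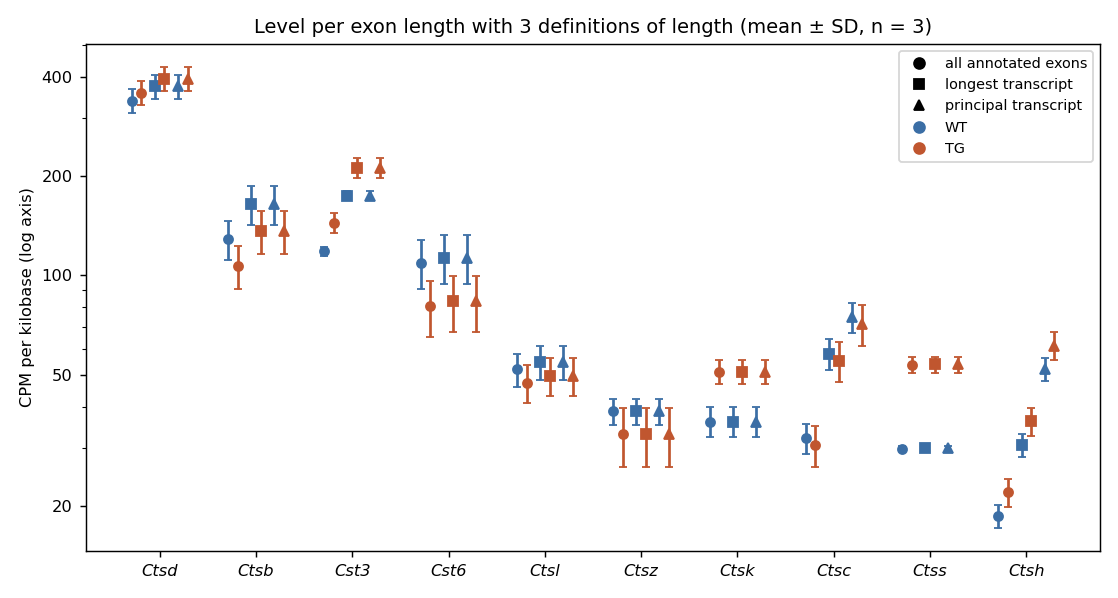
Level of each gene in CPM per kilobase (vertical log axis) in WT (blue) and TG (orange) skin, as mean ± SD of 3 libraries, with the length taken as all annotated exons (circles), the longest transcript (squares) or the principal transcript (triangles). *Ctsd* is the highest under every length, whereas *Ctsc* and *Ctsh* move up with shorter lengths.

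Levels were compared between genes only after division by exon length, as CPM per kilobase. With the union of all annotated exons, *Ctsd* was the highest in WT skin at 338 ± 28.0, followed by *Ctsb* at 129 ± 17.4, *Cst3* at 118 ± 3.83 and *Cst6* at 109 ± 18.2 (SD, n = 3). The libraries of these 3 neighbours overlapped. *Ctsl* followed with a mean of 51.9, and then *Ctsz* at 38.9 ± 3.52, *Ctsk* at 36.1 ± 3.79, *Ctsc* at 32.1 ± 3.39 and *Ctss* at 29.9 ± 0.448, each of which overlapped the next. *Ctsh* was the lowest, with a mean of 18.7 CPM per kilobase and no overlap with *Ctss*. In TG skin the level of *Ctss* was 53.6 ± 2.99 and that of *Ctsk* 51.1 ± 4.27, beside 47.2 ± 6.23 CPM per kilobase for *Ctsl*, and the libraries of the 3 genes overlapped. The order depends on the length used. With the principal transcript, the WT level of *Ctsc* was 74.9 ± 7.90 and that of *Ctsh* 52.0 ± 4.17, and *Ctss* was the lowest of the 10 at 29.9 ± 0.449 CPM per kilobase.

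**Figure D3:**
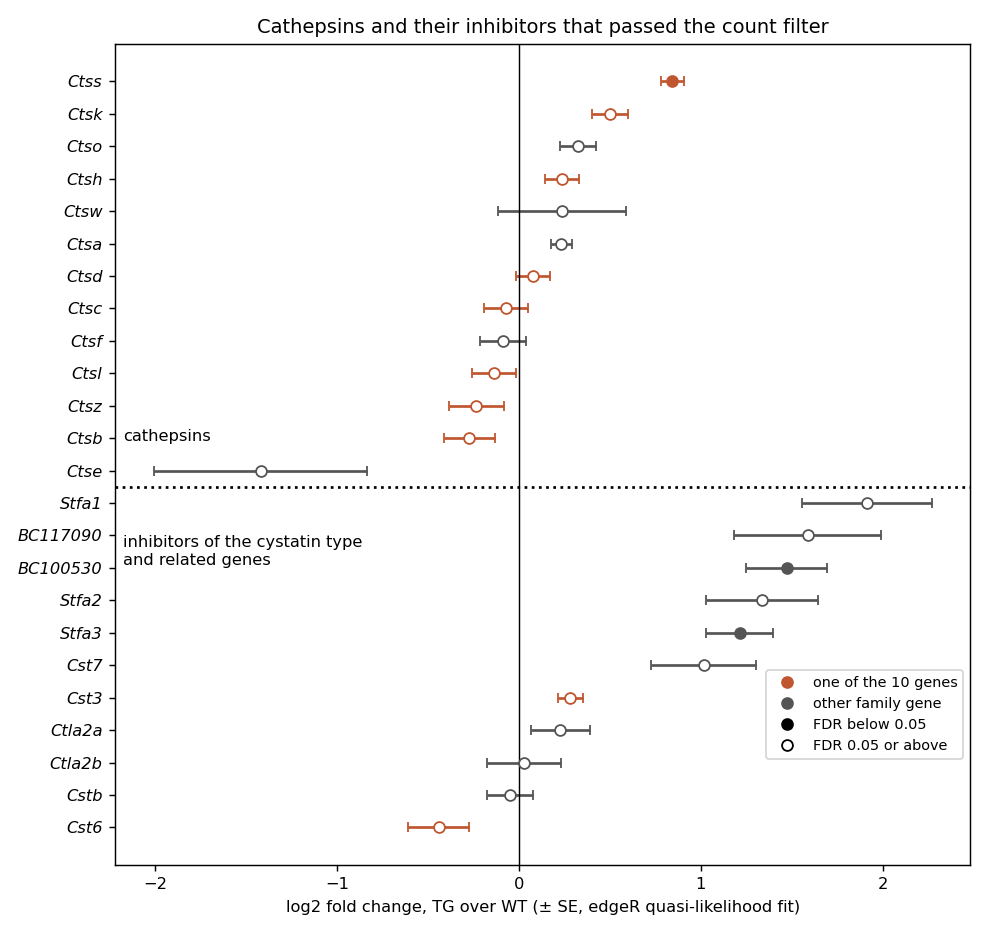
Log2 fold change of TG over WT (horizontal axis) with its SE for the 13 cathepsins and 11 inhibitors that passed the count filter, orange for the 10 genes and grey for other family genes, filled where the FDR was below 0.05. *Ctss* is the only filled cathepsin, and the stefin genes *Stfa3* and *BC100530* are the filled inhibitors.

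Of 14 other cathepsin genes, 8 had a row in the table, 5 passed the filter and 0 were called in edgeR's quasi-likelihood test, where 3 had an unadjusted p below 0.05. The likelihood-ratio test called 1, voom 0 and DESeq2 1. Over all 15102 tested genes, 3968 had an unadjusted p below 0.05 in the quasi-likelihood test. *Ctsa*, the carboxypeptidase that protects β-galactosidase, had a log2 fold change of 0.23 (FDR 0.0700), *Ctso* 0.32 (FDR 0.102), *Ctsw*, a protease of cytotoxic lymphocytes, 0.24 (FDR 0.706) and *Ctsf* -0.09 (FDR 0.701). *Ctse*, an aspartic protease like *Ctsd*, had 71.4, 94.6 and 104 CPM in WT and 46.1, 7.65 and 46.9 CPM in TG libraries. All TG values lay below all WT values, and TG replicate 2 was far below the rest. Its log2 fold change of -1.42 (SE 0.59) had an FDR of 0.18, whereas without TG replicate 2 it was -0.93 with an FDR of 0.0224.

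Of 21 other cystatins, stefins and related inhibitors, 18 had a row and 9 passed the filter, of which 2 were called higher and 0 lower, with a median log2 fold change of 1.21. The likelihood-ratio test called 6, voom 2 and DESeq2 5. The called genes belong to the stefin A cluster, whose products inhibit cysteine cathepsins inside the cell. *BC100530* had 65.8, 115 and 104 CPM in WT and 286, 210.3 and 293 CPM in TG libraries, a log2 fold change of 1.47 (SE 0.22, FDR 0.0398). *Stfa3* had 40.0, 68.0 and 56.4 CPM in WT and 128, 116 and 138 CPM in TG libraries, a log2 fold change of 1.21 (SE 0.18, FDR 0.0398). For both, every TG library was above every WT library. The values of *Stfa1* (1.91, FDR 0.0505), *Stfa2* (1.34, FDR 0.0633) and *BC117090* (1.59, FDR 0.0733) were also positive and missed the threshold of the quasi-likelihood test. Without TG replicate 2, the lowest TG library for each, *Stfa1* (2.23, FDR 0.00860) and *Stfa2* (1.59, FDR 0.0206) were called as well. Without TG replicate 1, *Stfa3* and *BC100530* were not called (FDR 0.0688 for each). These genes are near-identical copies, and since only uniquely mapped reads were counted, the split of reads between them is uncertain. Outside the cluster, *Cst7* (cystatin F, of immune cells) had a log2 fold change of 1.02 (FDR 0.0882), *Cstb* (stefin B) -0.05 (FDR 0.839), *Ctla2a* 0.23 (FDR 0.408) and *Ctla2b* 0.03 (FDR 0.938). *Cst3* and *Cst6* therefore lay far below the stefin A genes in the size of their fold change.

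The lists of further lysosomal genes held 77 genes, all of which passed the filter. Of these, 0 were called higher and 1 lower, with a median log2 fold change of 0.05. Among 40 hydrolases 0 were called (median 0.13), and the likelihood-ratio test called 2, voom 0 and DESeq2 6. In the quasi-likelihood test 15 of the 40 had an unadjusted p below 0.05, as had 3968 of all 15102 tested genes. The TG values of 18 hydrolases lay wholly above and those of 3 wholly below the WT values, where 15.5% and 18.2% of all tested genes did so. *Psap*, the precursor of the saposins and the most counted hydrolase gene, had a log2 fold change of 0.11 (FDR 0.356). *Lgmn*, the asparaginyl endopeptidase that processes cathepsin precursors, had 71.7, 82.6 and 80.7 CPM in WT and 103, 87.5 and 101 CPM in TG libraries, a log2 fold change of 0.31 (SE 0.09, FDR 0.0857). Without TG replicate 2, its lowest TG library, the value was 0.40 and was called (FDR 0.0389). The hydrolases summed to 1836 to 1919 CPM in WT and to 2052 to 2062 CPM in TG libraries.

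Among 24 genes of the lysosomal membrane and proton pump, 1 was called lower (median 0.00). This was *Atp6v0d2*, a pump subunit of osteoclasts and other specialised cells, with 4.67, 4.97 and 5.42 CPM in WT and 2.28, 1.18 and 1.75 CPM in TG libraries (log2 fold change -1.52, SE 0.24, FDR 0.0401, and FDR 0.0639 without WT replicate 1). *Lamp2*, the most counted, had 365 to 371 CPM in WT and 364 to 368 CPM in TG libraries. Among 13 sorting receptors and regulators 0 were called (median -0.03; 4 had an unadjusted p below 0.05, and the likelihood-ratio test called 2, voom 0 and DESeq2 1), with *Sort1*, the most counted, at -0.25 (FDR 0.0860). Of the related regulators that bind the E-box, *Tfeb* had a log2 fold change of -0.06 (FDR 0.766), *Tfe3* of 0.32 (FDR 0.106) and *Mitf*, also the master regulator of melanocytes, of -0.80 (SE 0.17, FDR 0.0569). *Tfec*, their low-level relative, named after its values were seen, had a log2 fold change of 1.09 (FDR 0.0953), and of 1.33 (FDR 0.0490) without TG replicate 2. Differences between these genes were not tested. *Mitf* had 79.3, 83.8 and 86.5 CPM in WT and 51.6, 34.9 and 56.9 CPM in TG libraries. Without TG replicate 2, its lowest library, the log2 fold change was -0.60 and was called (FDR 0.0138). Beside it, the 6 melanocyte markers summed to 412 to 483 CPM in WT and to 156 to 266 CPM in TG skin, with *Dct* (-0.80) and *Tyrp1* (-1.16) called lower, both at an FDR of 0.0467. Of the 6 markers, 5 were called without TG replicate 2, whereas *Dct* and *Tyrp1* were not called without WT replicate 1 (FDR 0.0791 and 0.0786) or TG replicate 1 (FDR 0.0677 for each). Their part in the *Mitf* value was not tested.

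**Figure D4:**
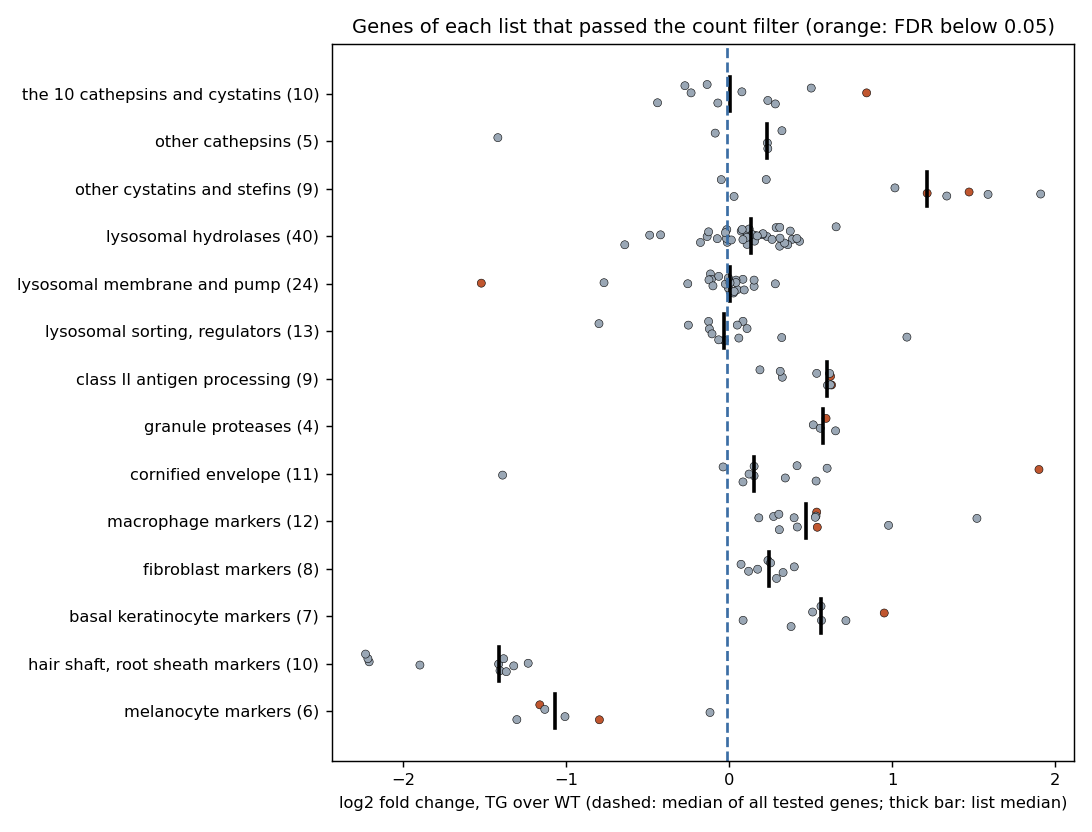
Log2 fold change of TG over WT (horizontal axis) of every gene that passed the filter in each list, with the number of genes in brackets, orange where the FDR was below 0.05, a thick bar at the list median and a dashed line at the median of all tested genes. The 10 genes and the lysosomal membrane list are centred near 0, and the stefins, class II genes and macrophage markers lie to the right.

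Among the genes of the pathway in which cathepsin S acts, the class II chains and the invariant chain had positive fold changes. Of 11 genes of MHC class II presentation, 9 passed the filter, 2 were called higher and 0 lower, and all 9 had positive values (median 0.60). *Cd74*, the invariant chain and the most counted of them, had 156, 122 and 139.8 CPM in WT and 196, 234 and 213 CPM in TG libraries (log2 fold change 0.62, SE 0.11, FDR 0.0436). *H2-Aa*, a class II chain, had a log2 fold change of 0.63 (SE 0.10, FDR 0.0419). Neither was called without TG replicate 1 (FDR 0.0642 and 0.0552), while the likelihood-ratio test called 6 of the list, voom 2 and DESeq2 7. The level of *Ctss* was 9.04% to 11.2% of the summed level of the 11 genes in WT and 10.2% to 13.5% in TG libraries, ranges that overlapped.

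Markers of macrophages, in which *Ctss*, *Ctsb*, *Ctsd* and *Ctsz* are abundant, had positive fold changes. Of 12 markers, 12 passed the filter, 2 were called higher and 0 lower, and 12 had positive values (median 0.47). *Mrc1*, the mannose receptor, had 152, 159 and 164 CPM in WT and 211, 238 and 241 CPM in TG libraries (log2 fold change 0.54, SE 0.07, FDR 0.0341), and *Csf1r*, the receptor of a macrophage growth factor, had one of 0.54 (SE 0.09, FDR 0.0456). Without WT replicate 1 neither was called (FDR 0.0583 and 0.0688), nor was *Csf1r* without TG replicate 1 (FDR 0.0709). The 12 markers summed to 595 to 718 CPM in WT and to 842 to 943 CPM in TG skin. The level of *Ctss* was 6.92%, 6.12% and 5.56% of that sum in WT and 9.00%, 7.23% and 7.94% in TG libraries, so that it was higher relative to the sum, without overlap. This does not hold for each marker. The log2 fold changes of the single markers ran from 0.18 to 1.52, beside 0.84 for *Ctss*. The part of macrophages in the *Ctss* value was not tested. Among 8 markers of dendritic and Langerhans cells, 5 passed the filter, 4 had positive values (median 0.46) and 1 was called higher, *Itgax* (0.82, FDR 0.0401), but not without WT replicate 1 (FDR 0.0652) or TG replicate 1 (FDR 0.0523). *Cd207*, the most counted, was at 0.82 (FDR 0.0596) and *Xcr1*, the negative one, named after its values were seen, at -0.24 (FDR 0.597). The 8 summed to 19.8 to 21.2 CPM in WT and to 25.7 to 33.1 CPM in TG skin.

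For *Ctsk*, the 8 fibroblast markers summed to 10309 to 13648 CPM in WT and to 13101 to 16927 CPM in TG skin, ranges that overlapped, with 8 of 8 positive, 0 called and a median log2 fold change of 0.25 (3 had an unadjusted p below 0.05, the likelihood-ratio test and voom called 0 and DESeq2 2). *Col3a1*, the most counted, had a log2 fold change of 0.40 (FDR 0.169). *Ctsk* was 0.423% to 0.469% of that sum in WT and 0.471% to 0.576% in TG libraries. The part of fibroblasts in its value was not tested.

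**Figure D5:**
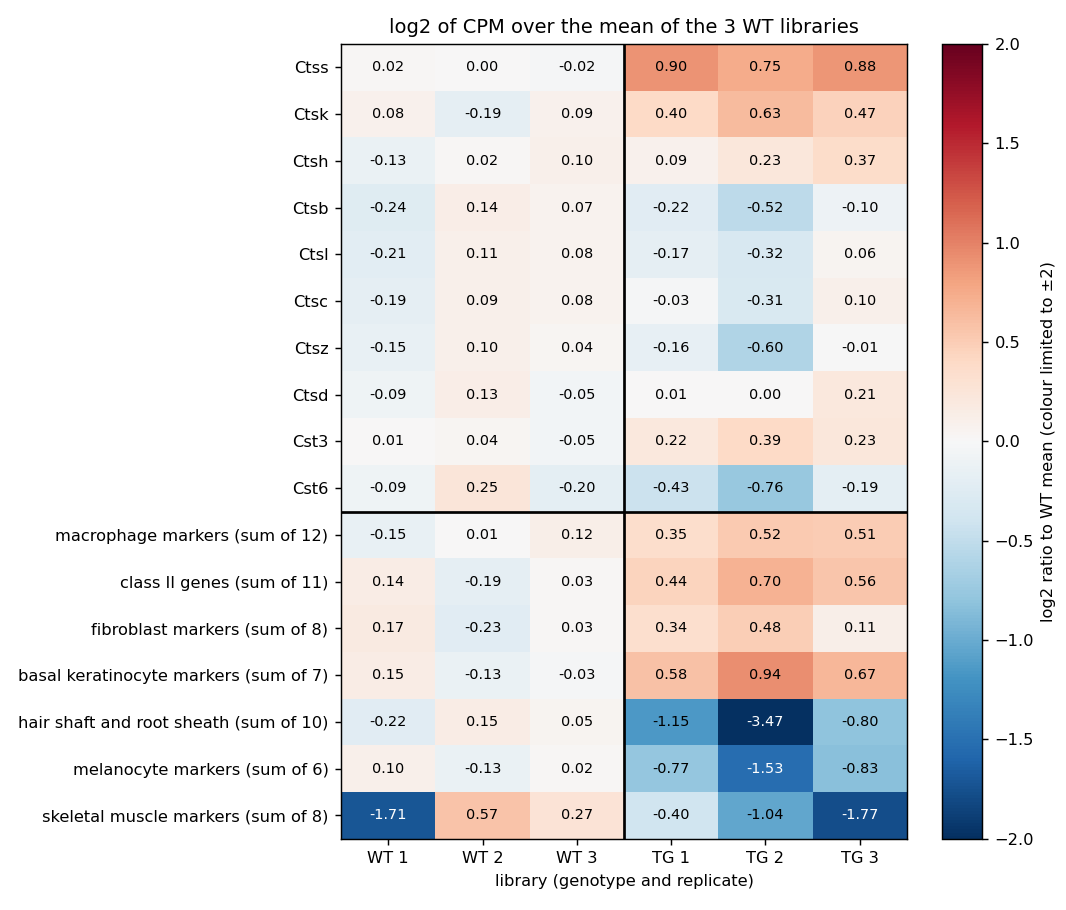
Log2 ratio of each library (columns) to the mean of the 3 WT libraries for the 10 genes and for 7 summed marker lists (rows), in red where higher and in blue where lower, with colours limited to ±2. TG replicate 2 has the lowest hair shaft sum (-3.47) and the lowest *Cst6* (-0.76) and *Ctsz* (-0.60), and the highest *Ctsk* (0.63) and *Cst3* (0.39).

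Set beside the marker sums, the genes fell on different sides of TG replicate 2. In that library *Ctsb*, *Ctsl*, *Ctsc*, *Ctsz* and *Cst6* had log2 ratios of -0.52, -0.32, -0.31, -0.60 and -0.76 to the WT mean, their lowest values, whereas *Ctsk* and *Cst3* had their highest, 0.63 and 0.39. The hair shaft and inner root sheath sum was at -3.47 and that of melanocytes at -1.53, also the lowest of the 6, and that of basal keratinocytes at 0.94 the highest. *Ctss* was lower there (0.75) than in the other TG libraries (0.90 and 0.88). The 10 hair markers all had TG values wholly below the WT values, where 18.2% of all tested genes did so. The median log2 fold change of the markers was -1.41. *Tchh*, the most counted, was at -1.23 (FDR 0.225), and at -0.76 (FDR 0.0918) without TG replicate 2. The quasi-likelihood test called 0 of the 10 hair markers with TG replicate 2 and 9 without it, 9 had an unadjusted p below 0.05, and the likelihood-ratio test called 9 and voom and DESeq2 0. In contrast, among the 7 basal keratinocyte markers, 1 was called higher (*Krt14*, 0.95, FDR 0.0300; median 0.56). The summed skeletal muscle markers ranged from 1423 to 6945 CPM within WT skin, and the libraries with the larger sums, WT replicates 2 and 3, had higher *Ctsb*, *Ctsl*, *Ctsc* and *Ctsz* than WT replicate 1. This did not hold in TG skin, where replicate 3, with the lowest muscle sum of the 6 libraries (1372 CPM), had the highest TG values of these 4 genes. The hair shaft and inner root sheath sum ranked the libraries as these 4 genes did, within WT and within TG skin. It was 13629, 17586 and 16402 CPM in WT replicates 1, 2 and 3 and 7138, 1437 and 9110 CPM in the TG replicates. Between the genotypes these sums did not overlap, whereas the values of the 4 genes did. The parts of hair follicle and muscle in these values were not tested.

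The genes whose profile over the 6 libraries was most like that of *Ctss*, by Pearson correlation of log2 CPM among genes with a mean of at least 10 CPM, were *Aqp3* (r = 0.997), the aquaglyceroporin of keratinocytes, *Nckap1l* (0.996), a regulator of actin in blood cells, *Akna* (0.993), *Nrros* (0.990) and *Car12* (0.989). For *Ctsk* they were *Gng2* (0.999), *Rab43* (0.999), *Clca3a2* (0.999), *Cbr3* (0.997) and *Klk8* (0.996), a serine protease of the epidermis. For *Cst6* they included *Cdv3*, *Psmb7*, *Enpp5* and *Mpi*, with r from 0.993 to 0.996. These values are a description over 6 libraries in 2 genotypes, so that any gene that separates the genotypes with little spread within each comes close to *Ctss*. The 5 genes nearest to *Ctss* had log2 fold changes of 0.48 to 0.84 and were all called, and the 4 named for *Cst6* had values of -0.36 to -0.11 and were not called. *Clca3a2* was the only called gene of the *Ctsk* group, at 1.18 (SE 0.21, FDR 0.0453).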

How the data were processed

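Raw counts of uniquely mapped reads per Ensembl gene were deposited, which the authors made with HTSeq-count after alignment by TopHat2 and Bowtie2 (GRCm38). The annotation release and strand setting are not given in the sources used here. Of 26579 identifiers, 26021 were named with GENCODE M21.

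Genes that reached 1 CPM in 3 or more libraries were tested with edgeR 4.0.16 (TMM, glmQLFit and glmQLFTest, R 4.3.3), with limma 3.58.1 (voom) and DESeq2 1.42.0 as alternatives, all adjusted by Benjamini-Hochberg. On simulated counts with 200 genes changed by a log2 fold of 1, 79% were recovered, with 7.06% false calls. The p-values measure the spread between 6 mice, 3 in each group, which includes counting error. That error weighs more for the listed genes with few counts. For *Ctss*, with 420 counts in WT replicate 3, it is not small beside the narrow spread within WT skin.

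The 10 genes, the other lists and the rule for named genes (the called genes of a list, at most 4, its most counted gene, every cathepsin and cystatin that passed the filter, *Lgmn*, *Tfeb*, *Tfe3*, *Mitf* and *Yap1*, and the 5 genes most like *Ctss*, *Ctsk* and *Cst6*) were chosen with earlier results of these data known. WT and TG libraries with the same replicate number were correlated at -0.33, -0.23 and -0.05 in their deviations from the group means. The sources used here do not say whether the numbers pair the libraries. With 3 libraries in a group, these correlations cannot decide it. For *Cst6*, 1 of the 5 is not reported here. Promoter sequences are from RefSeq.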

Additional observations from a re-analysis of the deposited data

How the results depend on the processing

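The calls given here and the fold changes of the 10 genes and of those named by the rule from the lists were recomputed under 14 alternatives, but those of *BC117090* and *Cst7* under 10, as they did not pass the filter in the others. The shares of the cathepsin sum, the genes most like *Ctss*, *Ctsk* and *Cst6* and the genes named after their values were seen were not recomputed under all of these. With 3 libraries in a group the loss of 1 decides many calls. Over the 10 genes, 128 of 140 recomputed values kept their sign and side of the threshold; *Ctss* lost its call in 4, *Ctsk* gained one in 6 and *Cst3* in 1. The whole table went from 288 calls to 497 without a count filter, 1568 with the likelihood-ratio test, 1583 with DESeq2 and between 0 and 817 when each library was left out. Of the 10 genes, 1 was called, but 2 with RLE or upper-quartile scaling, without a filter or with the likelihood-ratio test, 3 with DESeq2 and 0 to 2 without 1 library. Of the 77 lysosomal genes 1 was called, but 2 without a filter, 6 with the likelihood-ratio test, 9 with DESeq2 and 0 to 5 without 1 library. Of the 12 macrophage markers 2 were called, but 4 with either scaling, without a filter or with at least 10 counts in every sample, 6 with the likelihood-ratio test, 8 with DESeq2 and 0 to 4 without 1 library. The fits that called 0 genes, those without WT replicate 2, WT replicate 3 or TG replicate 3, had 2726, 2844 and 3691 genes with an unadjusted p below 0.05, among them 3, 5 and 4 of the 10. The cause was not tested.

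With the replicate number as a block, 0 genes of the table, 0 of the 10, 0 lysosomal genes and 0 macrophage markers were called by edgeR's quasi-likelihood test, where 2949 genes and 4 of the 10 had an unadjusted p below 0.05. The log2 fold change of *Ctss* in the block fit was 0.84 (FDR 0.102). Whether the numbers pair the libraries is not known, so nothing is read from the lost calls.

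Of the 58 genes named from the lists or as the check of the transgene (*Yap1*), 9 turned sign under some alternative. Without 1 library at a time, their log2 fold changes ran from -0.161 to 0.0526 for *Ctsc*, from -0.171 to 0.0616 for *Ctsf*, from -0.0164 to 0.650 for *Ctsw*, from -0.123 to 0.11 for *Cstb*, from -0.0848 to 0.167 for *Ctla2b*, from -0.0101 to 0.0178 for *Lamp2*, from -0.1797 to 0.0226 for *Tfeb*, from -0.0280 to 0.22 for *Trbc2* and from -0.151 to 0.0744 for *Lpl*. *Lamp2* also became 0.00491 with RLE scaling, 0.0158 with upper-quartile scaling, 0.00621 without a filter and 0.00505 with DESeq2. The principal transcript as length was added after seeing the data.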

Other observations

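Of 10 proteases of mast cell, neutrophil and lymphocyte granules, a list drawn up around cathepsin C, 4 passed the filter, and all 4 had positive log2 fold changes (median 0.58) although *Ctsc* itself was at -0.07. *Cma1*, a mast cell chymase, was called higher at 33.5, 31.0 and 34.4 CPM in WT and 42.4, 55.3 and 51.6 CPM in TG libraries (log2 fold change 0.59, SE 0.11, FDR 0.0467 in edgeR's quasi-likelihood test), but not with voom (FDR 0.0541) or without WT replicate 1 (FDR 0.0776). *Cpa3*, a metallocarboxypeptidase and the most counted, was at 0.56 (FDR 0.0531) and was called without TG replicate 2 (0.48, FDR 0.0392). Beside them, the 6 mast cell markers summed to 44.4 to 52.4 CPM in WT and to 57.1 to 64.5 CPM in TG skin, with *Hdc*, the histamine-forming enzyme, called higher (1.45, FDR 0.0300) and *Kit* at -0.20 (FDR 0.277), or -0.09 without TG replicate 2. Proteases of neutrophil and lymphocyte granules in the list reached at most 1.44 CPM in any library (*Gzmb*, named after its values were seen).

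Of 12 genes of the cornified envelope, on which cathepsin L and cystatin M/E bear, 11 passed the filter (median 0.15), 9 had positive values and 1 was called higher, *Sprr1b* (20.2, 32.4 and 30.9 CPM in WT and 94.1, 104 and 114 CPM in TG libraries; log2 fold change 1.90, SE 0.18, FDR 0.0194). *Asprv1*, the most counted, was at 0.53 (FDR 0.0657) and was called without TG replicate 2 (0.40, FDR 0.0383). *Tgm3*, a transglutaminase named after its values were seen, had 64.6, 128 and 106 CPM in WT and 45.6, 19.2 and 49.1 CPM in TG libraries (log2 fold change -1.39, FDR 0.0836). It was called by the likelihood-ratio test (FDR 0.000691) and DESeq2 (FDR 0.0478), but not by voom (FDR 0.0836) or without TG replicate 2 (FDR 0.0703).

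The remaining marker lists were counted in the same test. Of 7 suprabasal keratinocyte markers 0 were called (median 0.56; *Krt10* 0.58, FDR 0.245, and 0.22, FDR 0.523, without TG replicate 2), where 4 had an unadjusted p below 0.05 and the likelihood-ratio test called 2, voom 0 and DESeq2 3. The quasi-likelihood test called 2 without TG replicate 2. Of 8 sebaceous markers 1 was called higher (*Soat1*, 0.94, FDR 0.0450, and FDR 0.0707 without TG replicate 1; median 0.83; *Scd1* 0.72, FDR 0.0773). Of 8 neutrophil markers, 2 passed the filter and 1 was called higher (*Cxcr2*, 1.05, FDR 0.0401, and FDR 0.0550 and 0.0688 without WT or TG replicate 1). The other, *Csf3r*, had a log2 fold change of 1.53 (FDR 0.0531), and both were called by the likelihood-ratio test, by DESeq2 and without TG replicate 2 (*Csf3r* then 1.83, FDR 0.00839). The markers with a row that did not pass the filter were *Retnlg*, *Camp*, *Mpo*, *Ltf* and *Ngp*. In any library *Retnlg* reached at most 0.834 CPM, *Camp* at most 0.562 CPM and the others at most 0.353 CPM. All of these and *Csf3r* were named after their values were seen. The quasi-likelihood and likelihood-ratio tests, voom and DESeq2 called 0 of the T cell (median 0.16; *Trbc2* 0.12, FDR 0.687), adipocyte (median -0.03; *Lpl* -0.03, FDR 0.893), endothelial (median 0.23; *Pecam1* 0.32, FDR 0.109) and skeletal muscle markers (median -1.12; *Myh4* -1.19, FDR 0.27), of which 1, 0, 2 and 0 had an unadjusted p below 0.05.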
